A study of Marchantia polymorpha with 9 samples.

Results

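In the liverwort Marchantia polymorpha, 13 genes on the autosomes were far lower in the mutant line Mpb-gata1-1 while the line Mpb-gata1-2 and the wild type BoGa kept them at similar levels. They were chosen by group means of these same libraries, from 20574 listed genes of which 20090 lie on chromosomes 1 to 8. A gene entered when its mean reached at least 1 CPM (unique gene reads of the gene, scaled to the library's sum of unique gene reads) in both Mpb-gata1-2 and BoGa, when those 2 means lay within 2-fold of each other, and when its Mpb-gata1-1 mean was under 1/8 of each. Of the 20090 autosomal genes, 11784 met the conditions on Mpb-gata1-2 and BoGa, and 17 of these (0.144%) also met the one on Mpb-gata1-1. Among the 17, 4 are left out by name and not described here. Because the means of all 3 groups chose the genes, their levels and ratios are given as a description with no test.

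RNA had been sequenced from whole thallus plants, untreated and 3 weeks old, grown at 22 °C with 16 h of light and 8 h of dark per day. The groups were the mutant line Mpb-gata1-1, the mutant line Mpb-gata1-2 and the wild type BoGa, with 3 libraries each and 3 pooled plants per library. Each mutant is represented by 1 line, so an effect of the mutation cannot be told apart from other differences between the lines. Nothing in the labels says that the 3 libraries of a group came from separate cultures, so the p-values describe only the spread among these libraries. In the mutants this spread may be technical. In BoGa the level of genes on the male V chromosome, defined below, was 0.359, 0.515 and 0.665 in replicates 1, 2 and 3. The source of the spread was not tested in any group.

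The thallus is the haploid body of the liverwort, so each autosomal gene is present there in a single parental version. B-class GATA genes, the family mutated in these lines, encode zinc finger transcription factors, known in flowering plants for promoting greening and chloroplast development. Sex in Marchantia is set by chromosomes called U in females and V in males.

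The libraries held 24369754 to 43370483 unique gene reads. MpGATA4 (Mp7g03490), taken here as the mutated B-GATA1 because of what is known of the study, had 255 to 263 CPM in Mpb-gata1-1, against 288 to 291 CPM in Mpb-gata1-2 and 148 to 153 CPM in BoGa. It rose by 0.74 ± 0.05 in Mpb-gata1-1 and by 0.91 ± 0.05 in Mpb-gata1-2 (log2, SE; edgeR adjusted p = 1.63e-06 and 3.03e-07). What the mutations are is not stated in the labels, so this level does not check which allele a library carries. Markers of gemma cups (4 genes), oil body cells (4 genes) and rhizoids (2 of 3 genes matched), all structures of the thallus, were expressed in every group. Their summed levels were 105 to 111, 26.1 to 31.3 and 31.9 to 38.9 CPM in Mpb-gata1-1, against 127 to 132, 27.4 to 29.5 and 29.5 to 34.5 CPM in Mpb-gata1-2, and 77.4 to 99.9, 23.4 to 29.5 and 26.3 to 28.3 CPM in BoGa. The 3 matched of 5 genes listed for sexual organs and gametes summed to 158 to 168, 179 to 184 and 194 to 202 CPM in Mpb-gata1-1, Mpb-gata1-2 and BoGa, with 1 of the 3 at 0 in Mpb-gata1-2. The level of V-chromosome genes (the median over 22 genes, each scaled so that Mpb-gata1-2 averages 1) was 0.0171 to 0.0254 in Mpb-gata1-1, 0.947 to 1.04 in Mpb-gata1-2 and 0.359 to 0.665 in BoGa. The V-chromosome level differed with the line, so its part in the results on the 13 genes cannot be told apart from other line differences. Neither this part nor that of the marker levels was tested.

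Added up, the 13 genes had 4.02, 6.03 and 4.93 CPM in the Mpb-gata1-1 libraries, 89.8, 83.2 and 86.7 CPM in the Mpb-gata1-2 libraries and 85.8, 76.5 and 77.4 CPM in the BoGa libraries. For each of the 13, the highest Mpb-gata1-1 library stood below the lowest of the 6 other libraries, by 3.60-fold (Mp6g18060) to 74.5-fold (Mp8g13460), a separation that the rule itself favours. The Mpb-gata1-1 mean was at least 8.47-fold below BoGa and at least 9.93-fold below Mpb-gata1-2. The median over the genes was 14.6-fold below BoGa and 18.8-fold below Mpb-gata1-2. All 13 passed the filter on low counts of the test across all genes. Mpb-gata1-2 relative to BoGa ran between 0.555 (Mp8g11130) and 1.77 (Mp7g09520), with a median of 1.06.

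**Figure D1:**
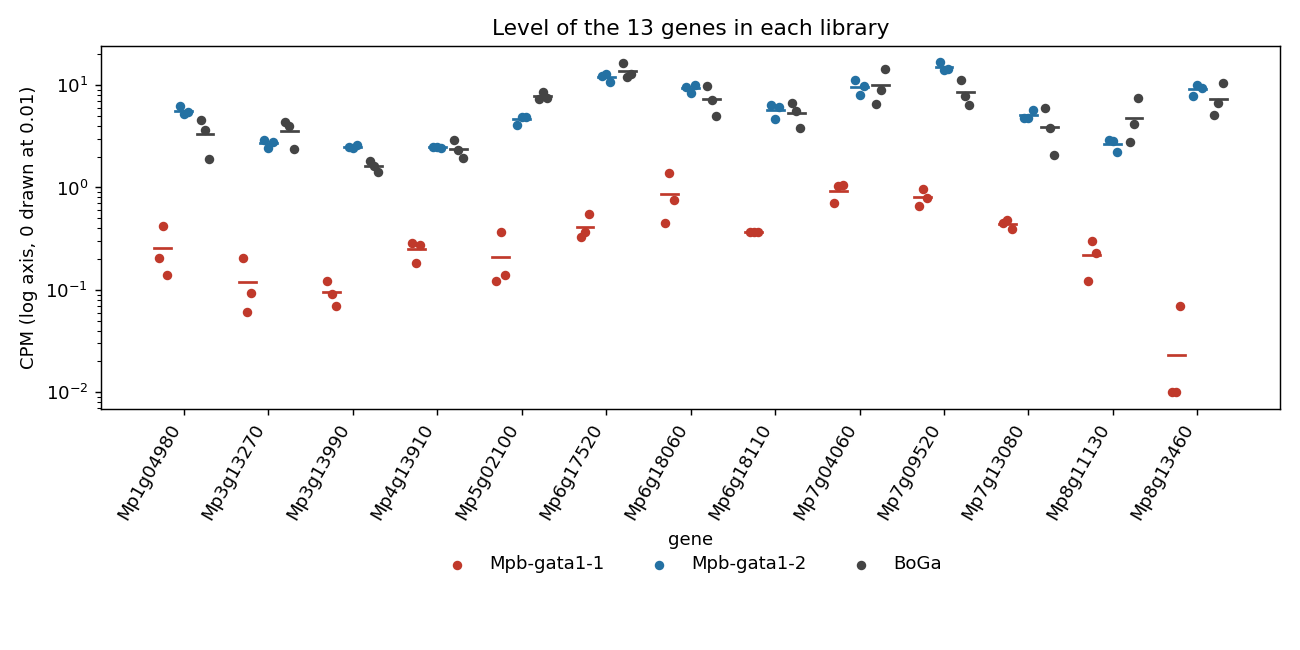
Level of each of the 13 genes in each library, in CPM on a log axis, with Mpb-gata1-1 in red, Mpb-gata1-2 in blue and BoGa in grey. Points are libraries (n = 3 per group), lines are group means, and libraries with 0 reads are drawn at 0.01. For every gene the red points lie below all others, and Mp8g13460 has 0, 0 and 0.0692 CPM in Mpb-gata1-1.

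**Figure D2:**
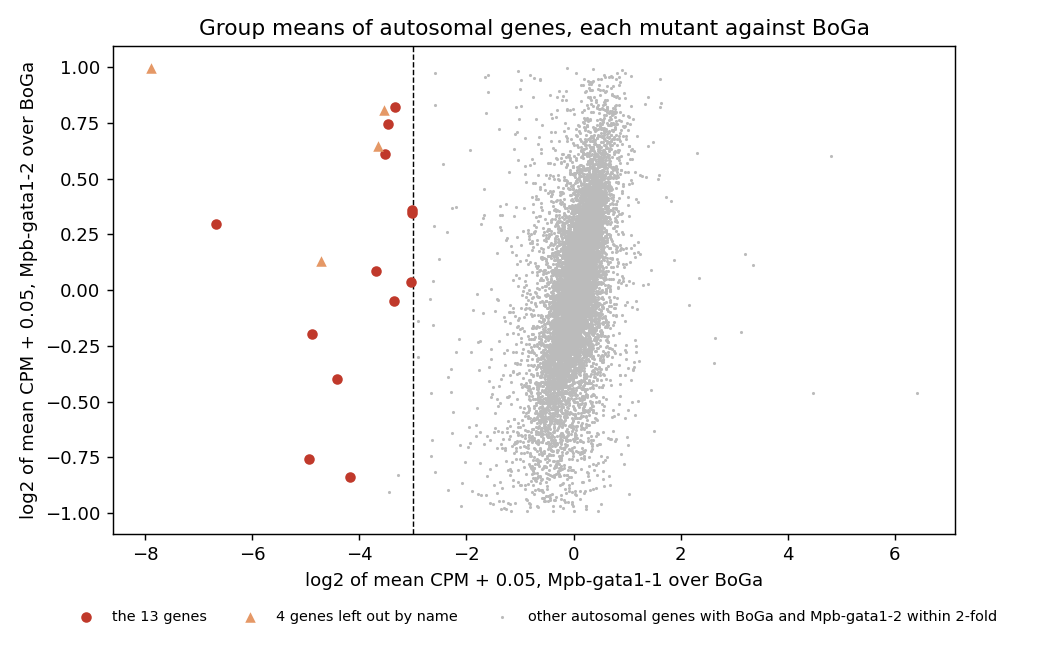
Group means of the 11784 autosomal genes whose BoGa and Mpb-gata1-2 means lie within 2-fold, as log2 ratios of mean CPM plus 0.05: Mpb-gata1-1 over BoGa on the horizontal axis and Mpb-gata1-2 over BoGa on the vertical axis. Red points are the 13 genes, orange triangles the 4 left out by name, and the dashed line marks 1/8 of BoGa.

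The most complete loss was that of Mp8g13460 (chromosome 8, 15155664 to 15157093, plus strand). It had 0, 0 and 0.0692 CPM in the Mpb-gata1-1 libraries, 7.76, 10.1 and 9.43 CPM in the Mpb-gata1-2 libraries and 5.15, 6.67 and 10.4 CPM in the BoGa libraries. The last Mpb-gata1-1 value rests on 3 reads, and a count of 0 in the other two allows up to 0.123 and 0.0909 CPM. From pooled reads the gene was 310-fold lower in Mpb-gata1-1 than in Mpb-gata1-2 (95% interval 106 to 1504; 3 reads against 894) and 252-fold lower than in BoGa (95% interval 85.9 to 1225; 3 reads against 767). These intervals and floors cover counting error only. The other 12 genes kept 9 to 97 unique reads over the 3 Mpb-gata1-1 libraries.

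Another 4 genes had Mpb-gata1-1 means under 1/16 of both other groups. Mp5g02100 (chromosome 5, 2718949 to 2721914, plus strand) had 0.123, 0.364 and 0.138 CPM in Mpb-gata1-1, against 4.09, 4.91 and 4.86 CPM in Mpb-gata1-2 and 7.40, 8.57 and 7.55 CPM in BoGa. It was the gene whose BoGa libraries lay closest together, and all 3 of them stood above all 3 Mpb-gata1-2 libraries. Mp6g17520 (chromosome 6, 19137792 to 19146395, plus strand), the longest of the genes at 8604 bp, had 0.328, 0.364 and 0.553 CPM in Mpb-gata1-1, against 12.2, 12.9 and 10.8 CPM in Mpb-gata1-2 and 16.5, 11.97 and 12.7 CPM in BoGa. Its Mpb-gata1-1 mean was 28.9-fold below Mpb-gata1-2 and 33.1-fold below BoGa, while the other groups overlapped.

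Mp3g13270 (chromosome 3, 13054401 to 13055365, plus strand), the shortest at 965 bp, had 0.205, 0.0606 and 0.0922 CPM in Mpb-gata1-1, against 2.93, 2.41 and 2.79 CPM in Mpb-gata1-2 and 4.40, 3.99 and 2.37 CPM in BoGa. Its locus number has no entry in the gene name table of the assembly MpTak2_v7.1, in which the other 12 were found. Mp3g13990 (chromosome 3, 13725383 to 13728449, plus strand) had the lowest BoGa mean of the 13. It stood at 0.123, 0.0909 and 0.0692 CPM in Mpb-gata1-1, against at 2.47, 2.41 and 2.58 CPM in Mpb-gata1-2 and at 1.796, 1.62 and 1.42 CPM in BoGa. Each Mpb-gata1-1 value of this gene rests on 3 reads. Mp3g13990 overlaps the listed gene Mp3g13995 on the same strand, the one overlap among the 13.

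A single gene of the 13 carries a symbol, MpRLK-Pelle_WAK_LRK10L-12 (Mp6g18060; chromosome 6, 20017644 to 20020721, minus strand). The symbol places it among receptor-like kinases of the WAK_LRK10L class, membrane proteins with a cytoplasmic kinase, some of whose relatives in flowering plants sense the cell wall or pathogens. It had 0.451, 1.39 and 0.761 CPM in Mpb-gata1-1, against 9.65, 8.34 and 10.1 CPM in Mpb-gata1-2 and 9.82, 7.23 and 5.02 CPM in BoGa. It was the gene just inside the limit, with a Mpb-gata1-1 mean at 11.8% of the BoGa mean, and 79.6% of its reads were unique to it. With total gene reads, which include reads shared with other genes, it no longer met the rule.

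Mp6g18110 (chromosome 6, 20073072 to 20078101, minus strand) is the nearest other member, 52.4 kb from the WAK_LRK10L gene on the same strand with 4 listed genes between. It had 0.369, 0.364 and 0.369 CPM in Mpb-gata1-1, against 6.37, 4.63 and 6.07 CPM in Mpb-gata1-2 and 6.68, 5.61 and 3.79 CPM in BoGa. In both genes of this pair BoGa replicate 1 was the highest and replicate 3 the lowest of the BoGa libraries.

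Chromosome 7 held 3 of the genes. Mp7g04060 (4974933 to 4977960, plus strand) had 0.698, 1.03 and 1.06 CPM in Mpb-gata1-1, against 11.2, 7.94 and 9.82 CPM in Mpb-gata1-2 and 6.50, 9.07 and 14.4 CPM in BoGa. It is the member nearest to MpGATA4, 0.629 Mb away with 57 listed genes between. Mp7g09520 (10758464 to 10761684, plus strand) had 0.657, 0.970 and 0.784 CPM in Mpb-gata1-1, against 16.7, 14.1 and 14.5 CPM in Mpb-gata1-2 and 11.3, 7.88 and 6.35 CPM in BoGa, so all Mpb-gata1-2 libraries were above all BoGa libraries. Mp7g13080 (14437183 to 14440146, minus strand) had 0.451, 0.485 and 0.392 CPM in Mpb-gata1-1, against 4.79, 4.76 and 5.66 CPM in Mpb-gata1-2 and 5.93, 3.80 and 2.10 CPM in BoGa. Of its reads 70.9% were unique, and it too missed the rule with total gene reads.

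Of the remaining genes, Mp1g04980 (chromosome 1, 5288948 to 5296447, plus strand) had the lowest share of unique reads, 65.4%. It had 0.205, 0.424 and 0.138 CPM in Mpb-gata1-1, against 6.26, 5.25 and 5.43 CPM in Mpb-gata1-2 and 4.52, 3.62 and 1.91 CPM in BoGa. In Mp4g13910 (chromosome 4, 16036458 to 16038600, plus strand) the Mpb-gata1-2 libraries lay closest together of the 13 genes. Its values were 0.287, 0.182 and 0.277 CPM in Mpb-gata1-1, against 2.47, 2.50 and 2.43 CPM in Mpb-gata1-2 and 2.90, 2.34 and 1.96 CPM in BoGa. Mp8g11130 (chromosome 8, 12515571 to 12516787, minus strand) had 0.123, 0.303 and 0.231 CPM in Mpb-gata1-1, against 2.90, 2.87 and 2.22 CPM in Mpb-gata1-2 and 2.81, 4.18 and 7.42 CPM in BoGa. Its BoGa libraries spread 2.63-fold, and its Mpb-gata1-2 values overlapped the lowest of them.

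Per gene length, all 13 genes were modestly expressed in wild-type thallus. Their mean TPM (the authors' length-scaled transcript abundance) ran from 0.0495 to 1.29 with a median of 0.355 in Mpb-gata1-1, from 2.53 to 20.3 with a median of 6.75 in Mpb-gata1-2, and from 1.58 to 15.9 with a median of 7.89 in BoGa. Each of the 13 was below the median BoGa level of 22.8 TPM over the 12693 autosomal genes with a BoGa mean of at least 1 CPM. Mp8g13460 had the highest TPM of the 13 in BoGa and the lowest in Mpb-gata1-1.

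The limit of 1/8 cut through a continuous range of ratios. Just inside stood Mp6g18060 at 11.8% and Mp7g13080 at 11.2% of the lower of the other means. Just outside stood Mp4g08490 at 12.5% and Mp7g08000 at 12.96%, with Mpb-gata1-1 means of 0.242 and 0.145 CPM. Mp3g09160 was left out for the difference between the other groups, with means of 0.0427 CPM in Mpb-gata1-1, against 21.9 CPM in Mpb-gata1-2 and 10.3 CPM in BoGa. Under the same conditions with the roles changed, 29 of 11869 autosomal genes were low in Mpb-gata1-2 alone and 71 of 11883 in BoGa alone. The like count for Mpb-gata1-1, before any gene was left out by name, was 17 of 11784. In the opposite direction, 6 of the 11784 genes that met the conditions on Mpb-gata1-2 and BoGa were more than 8 times higher in Mpb-gata1-1 than in each.

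Along the chromosomes the 13 genes were scattered rather than in runs. Chromosomes 6 and 7 held 3 each, chromosomes 3 and 8 held 2 each, chromosomes 1, 4 and 5 held 1 each, and chromosome 2 held 0. The 4 genes that meet the rule but are left out by name are not in these counts or in the search for runs. With a run defined as neighbouring members separated by at most 2 listed genes, there was no run. Allowing up to 5 genes between, or gaps under 100 kb, joined Mp6g18060 and Mp6g18110 and no other pair. The next closest pairs were Mp3g13270 and Mp3g13990 at 670 kb with 76 listed genes between, and Mp6g17520 and Mp6g18060 at 871 kb with 57 between.

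The genes around each member were not used to choose it and could be tested. For the 5 listed genes on each side, 124 in all, 88 had enough reads. In Mpb-gata1-1 against BoGa, 28 of the 88 were lower, 21 were higher and 39 did not pass the edgeR quasi-likelihood test at an adjusted p under 0.05. That is 31.8% lower and 23.9% higher, against 23.2% and 23.3% of all 14360 genes tested, of which 46.5% were called in either direction. With 10 listed genes on each side, 43 of 183 tested genes were lower (23.5%) and 47 higher (25.7%), so the lower share was then near that of all genes. With 5 on each side, the median log2 change was -0.02 for the flanking genes and 0.00 for all genes. Changes of at least 2-fold downwards were found in 11 flanking genes (12.5%, against 4.92% of all genes) and upwards in 3 (against 3.18% of all genes). In Mpb-gata1-2 against BoGa, 23 flanking genes were lower and 13 higher (26.1% and 14.8%, against 24.8% and 22.1% of all genes), of which 46.9% were called. By at least 2-fold, 10 were lower (11.4%, against 5.03%) and 2 higher (against 3.52%). Both comparisons share the BoGa libraries. In Mpb-gata1-1 against Mpb-gata1-2, 22 flanking genes were lower, 23 higher and 43 not called, against 15.2% lower and 16.1% higher, 31.2% in all, of all genes tested. By at least 2-fold, 7 were lower (against 3.66% of all genes) and 7 higher (against 3.53%).

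Of the 26 genes directly beside a member, 19 were tested, and 8 were lower, 5 higher and 6 not called in Mpb-gata1-1 against BoGa. That is 42.1% lower and 26.3% higher, against 23.2% and 23.3% of all genes tested. Beside Mp8g13460, MpBBX5 (Mp8g13470), of a family of B-box zinc finger proteins, had 355, 399 and 354 CPM in Mpb-gata1-1, against 355, 344 and 371 CPM in Mpb-gata1-2 and 344, 337 and 361 CPM in BoGa. It did not pass in Mpb-gata1-1 against BoGa (log2 0.04, edgeR adjusted p = 0.628) and was chosen after its values were seen.

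Among the flanking genes was Mp7g04050, which ends 108 bp before Mp7g04060 on the same strand. It had 0.616, 0.909 and 0.853 CPM in Mpb-gata1-1, against 5.95, 4.57 and 5.09 CPM in Mpb-gata1-2 and 3.38, 5.05 and 7.61 CPM in BoGa. All 3 Mpb-gata1-1 libraries were below the 6 others, and the BoGa libraries stood in the same order as for Mp7g04060. It fell by 2.78 ± 0.31 in Mpb-gata1-1 (log2, SE; edgeR adjusted p = 6.47e-05) and differed by -0.09 in Mpb-gata1-2 (adjusted p = 0.793). It missed the rule at 15.2% of the lower mean. Some other genes at this locus were lower in Mpb-gata1-2 instead. Mp7g04070, on the far side, fell by 1.34 in Mpb-gata1-2 and differed by 0.03 in Mpb-gata1-1 (edgeR adjusted p = 9.01e-07 and 0.797). Mp7g04020, the fifth listed gene before Mp7g04060, held 3 reads in Mpb-gata1-2 and 136 in BoGa, a ratio of 43.0 in favour of BoGa (95% interval 14.4 to 211, counting error only). Both were singled out after their values had been seen.

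Around the chromosome 6 pair lie receptor-like kinase genes whose symbols read WAK, without the LRK10L part. Mp6g18070 (MpRLK-Pelle_WAK4), next to the WAK_LRK10L gene, fell by 1.41 ± 0.27 in Mpb-gata1-1 (edgeR adjusted p = 0.00177), with 0.287, 0.212 and 0.254 CPM there, against 0.541, 0.525 and 0.362 CPM in Mpb-gata1-2 and 0.719, 0.623 and 0.600 CPM in BoGa. Mp6g18090 (MpRLK-Pelle_WAK5), between the pair, did not pass (-0.13, adjusted p = 0.429), and Mp6g18030 (MpRLK-Pelle_WAK3) rose by 0.32 (adjusted p = 0.0429). WAK5 and WAK3 were also chosen after their values were seen. Mp6g18040, 25078 bp from the WAK_LRK10L gene, fell by 3.28 ± 0.60 (edgeR adjusted p = 0.00122). Its pooled reads were 5 in Mpb-gata1-1, 35 in Mpb-gata1-2 and 51 in BoGa, and its means outside Mpb-gata1-1 were below the 1 CPM that the rule asks for. On the other side of the pair, Mp6g18120 rose by 0.67 in Mpb-gata1-1 and fell by 3.00 in Mpb-gata1-2 (edgeR adjusted p = 0.0147 and 6.19e-06), with 38.9, 49.8 and 43.3 CPM in Mpb-gata1-1, against 3.59, 3.31 and 3.44 CPM in Mpb-gata1-2 and 19.0, 25.2 and 35.96 CPM in BoGa. It was singled out after its values had been seen.

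Beside Mp6g17520 the falls were broader and smaller than that of the member. Of 8 tested flanking genes, 5 were lower and 0 higher in Mpb-gata1-1, against 23.2% and 23.3% of all genes tested. Mp6g17510 fell by 1.42 and Mp6g17560, 134891 bp away, fell by 1.02 (edgeR adjusted p = 0.00026 and 1.10e-05). Mp6g17560 had 48.3, 56.2 and 58.7 CPM in Mpb-gata1-1, against 114.6, 98.8 and 101.9 CPM in Mpb-gata1-2 and 109.2, 96.0 and 114.9 CPM in BoGa, so Mpb-gata1-1 stood apart from the other groups, which overlapped. Mp6g17500 fell by 1.40 in Mpb-gata1-1 and fell by 2.32 in Mpb-gata1-2 (edgeR adjusted p = 0.000314 and 2.18e-05). The counts at this locus were singled out after they had been seen, and the mix differed between members. Around Mp3g13270, 0 of 6 tested flanking genes were lower and 3 higher in Mpb-gata1-1.

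Around Mp5g02100, 5 of 8 tested genes were lower and 0 higher in Mpb-gata1-1, against 23.2% and 23.3% of all genes tested. This locus too was singled out after its counts had been seen. The same 5 genes were called lower in Mpb-gata1-2 as well, where Mp5g02070 was higher. MpGH19.10 (Mp5g02110), whose symbol places it in glycoside hydrolase family GH19, known for plant chitinases, fell by 2.76 in Mpb-gata1-1 and by 4.35 in Mpb-gata1-2, with 41.5% unique reads. Mp5g02080 fell by 1.72 in Mpb-gata1-1 and by 0.73 in Mpb-gata1-2. Mp5g02050, with 23.8% unique reads, fell by 1.67 in Mpb-gata1-1 and by 1.54 in Mpb-gata1-2. The falls of Mp5g02110, Mp5g02080 and Mp5g02050 had edgeR adjusted p between 1.15e-06 and 0.00427. Next to Mp8g13460, Mp8g13450 fell by 2.14 in Mpb-gata1-1 and by 1.57 in Mpb-gata1-2 (edgeR adjusted p = 2.42e-06 and 1.28e-05), with 4.55, 5.76 and 4.87 CPM in Mpb-gata1-1, against 6.37, 8.56 and 7.47 CPM in Mpb-gata1-2 and 24.7, 22.3 and 17.9 CPM in BoGa. Near Mp8g11130, Mp8g11080 fell by 1.65 in Mpb-gata1-1 and differed by 0.13 in Mpb-gata1-2 (edgeR adjusted p = 0.00228 and 0.722).

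The 3 flanking genes that were at least 2-fold higher in Mpb-gata1-1 all lie beside Mp1g04980. Mp1g04970 rose by 3.54 in Mpb-gata1-1 and by 4.29 in Mpb-gata1-2, with 1.56, 1.00 and 1.15 CPM in Mpb-gata1-1, against 1.89, 1.98 and 2.22 CPM in Mpb-gata1-2 and 0.0898, 0.125 and 0.0818 CPM in BoGa. Mp1g04960, which overlaps it on the same strand, rose by 1.61 in Mpb-gata1-1 and by 0.81 in Mpb-gata1-2. The edgeR adjusted p of these 2 genes lay between 1.73e-06 and 0.00158. Mp1g04930 rose by 1.06 in Mpb-gata1-1 (edgeR adjusted p = 0.0411), but not with DESeq2 (adjusted p = 0.0905) or when any of 6 of the 9 libraries was left out (adjusted p up to 0.104, without BoGa replicate 2).

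**Figure D3:**
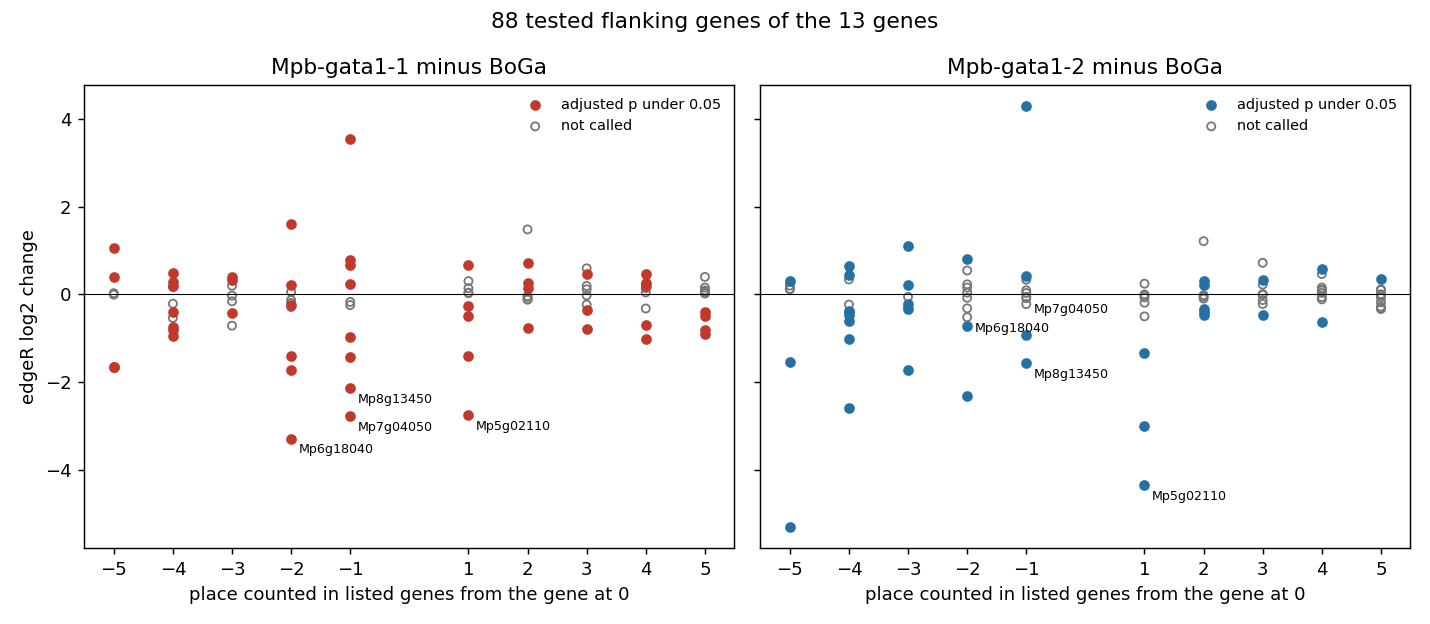
Log2 change from edgeR of the 88 tested flanking genes in Mpb-gata1-1 minus BoGa (left, red) and Mpb-gata1-2 minus BoGa (right, blue), by place in listed genes from the member at 0. Filled points passed at an adjusted p under 0.05 and open points did not. Mp7g04050 and Mp6g18040 are at -2.78 and -3.28 on the left and were not called on the right, whereas Mp5g02110 and Mp8g13450 are low on both sides.

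The rule did not use the spread among the BoGa libraries, but it used their mean, which comes from the same values. The spread and order of the BoGa libraries are therefore not independent of the choice of the 13 genes. The ratio of the highest to the lowest BoGa library was 1.16 (Mp5g02100) to 2.82 (Mp7g13080) over the 13 genes, with a median of 1.86. It reached 1.5 for 9 of the 13 (69.2%), against 611 (18.7%) of the 3260 other autosomal genes within the same range of BoGa means, whose median was 1.24. In Mpb-gata1-2 the same ratio was 1.03 to 1.41 for the 13 genes, so that 0 of the 13 reached 1.5, against 8.71% of the 3260 genes. The BoGa libraries thus lay further apart in most of these genes than the Mpb-gata1-2 libraries did.

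Most of these genes shared the order of the BoGa libraries. In 8 of the 13 genes (61.5%, against 17.4% of the 3260) replicate 1 was above replicate 2 and replicate 2 above replicate 3. In Mp7g04060, Mp8g11130 and Mp8g13460 (23.1%, against 28.4% of the 3260) the order was the opposite, and Mp5g02100 and Mp6g17520 had neither order. The V-chromosome level of the same libraries was 0.359 in BoGa replicate 1, 0.515 in replicate 2 and 0.665 in replicate 3. Its part in the order of the 13 genes was not tested. Without BoGa replicate 1 the rule found 9 genes, among them 8 of the 13, as Mp1g04980, Mp6g18060, Mp7g09520, Mp7g13080 and Mp8g11130 dropped out.

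**Figure D4:**
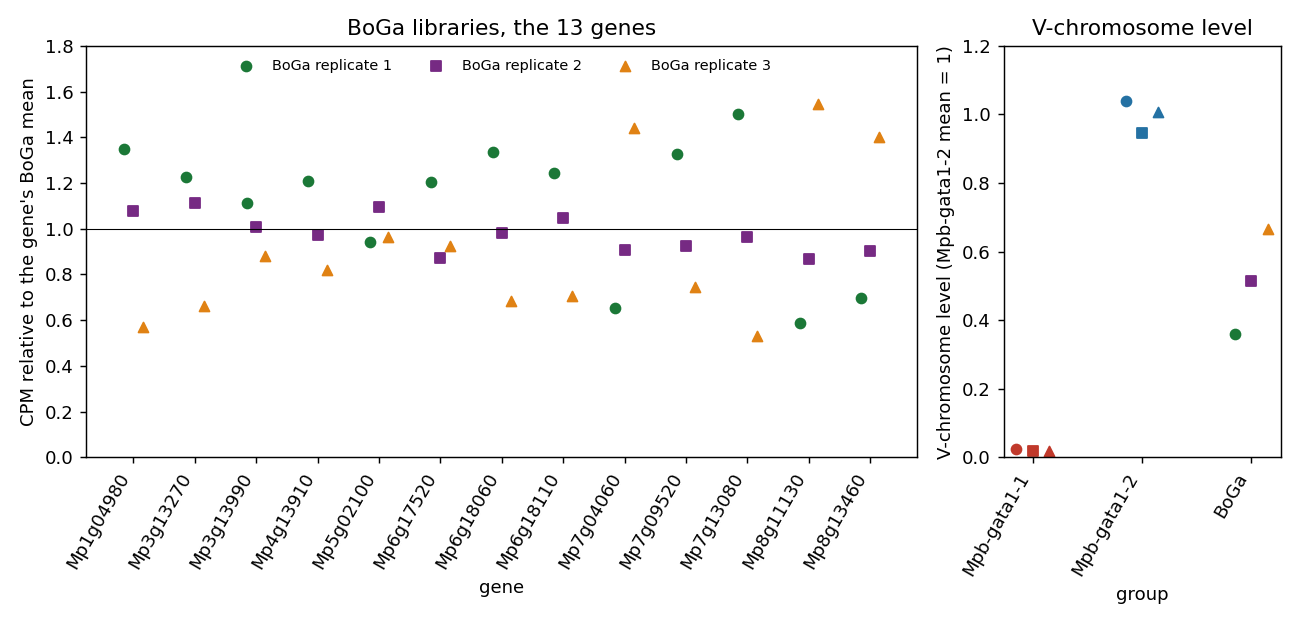
Left, CPM of each BoGa library relative to the gene's BoGa mean for the 13 genes, with replicates 1, 2 and 3 as circles, squares and triangles. Right, the V-chromosome level of each library on a scale where the Mpb-gata1-2 mean is 1. Circles are highest for 9 of the 13 genes, and triangles are highest for Mp7g04060, Mp8g11130 and Mp8g13460, whereas the V-chromosome level was 0.359 for the circle and 0.665 for the triangle of BoGa.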

How the data were processed

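The deposited table of each library gives unique and total gene reads, which are raw counts per the file headers, and TPM calculated by the authors. The authors' TPM was scaled by the length of each gene region, introns included, so genes with long introns come out low. Per the labels' protocols, the libraries were made with a TruSeq kit that keeps strand. As for aligner, genome build, annotation and strand setting: not given in the sources used here. Coordinates stand as deposited. Unique counts leave out reads shared between similar genes.

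CPM was computed from unique gene reads and their sum per library, 24369754 to 43370483. Unique counts were tested with edgeR 4.0.16 in R 4.3.3 (filterByExpr, TMM, robust quasi-likelihood test on 3 groups and 9 libraries), with Benjamini-Hochberg adjustment over 14360 genes. The biological coefficient of variation, as edgeR names the spread among libraries of a group, was 8.71%. The test was also run on simulated data with this same spread for every gene and few changed genes. That setting is simpler than these libraries. Symbols were matched by locus number to MpTak2_v7.1, where 17641 of 20574 genes matched. Of the 12 matched members, 7 had a length within 20 bp of that table, against 14361 of the 17641 matched genes. Mp6g18060, the member with a symbol, had 3078 bp against 3613 bp there, and Mp3g13990 had 3067 bp against 421 bp.

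The members, lists and tests were chosen with earlier results of these data known. Flanking genes were named when called with at least 2-fold change in Mpb-gata1-1, and others are marked as chosen after their values were seen. Values in every library are given for every member, beyond the rule for named genes, which asked for members in runs, with symbols or among the 10 highest. A planned comparison with the closest paralogs was not run, since protein sequences were not used here. Alternatives were other normalizations, filters, read types, DESeq2 1.42.0, a replicate block and leaving out each library.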

Additional observations from a re-analysis of the deposited data

Results flagged for a closer look

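The change against BoGa differed between the mutants, by the edgeR test of Mpb-gata1-1 minus Mpb-gata1-2 on the log2 scale, for 12 of the 14 named flanking genes and for MpGATA4. Lower in Mpb-gata1-1 than in Mpb-gata1-2 were Mp6g18040 (-2.77, adjusted p = 0.00747), Mp7g04050 (-2.69, adjusted p = 0.000103), Mp8g11080 (-1.77, adjusted p = 0.00213), Mp6g17510 (-1.76, adjusted p = 8.66e-05), Mp5g02080 (-0.995, adjusted p = 5.35e-05), Mp6g17560 (-0.958, adjusted p = 1.79e-05), Mp6g18070 (-0.914, adjusted p = 0.0349), Mp1g04970 (-0.752, adjusted p = 0.0143), Mp8g13450 (-0.574, adjusted p = 0.0162) and MpGATA4 (-0.170, adjusted p = 0.0190). Higher in Mpb-gata1-1 were Mp5g02110 (1.60, adjusted p = 0.0170), Mp6g17500 (0.923, adjusted p = 0.0207) and Mp1g04960 (0.792, adjusted p = 0.00176). Over all genes tested, 31.2% passed in this comparison. The 14 genes were named for their change in Mpb-gata1-1 against BoGa, and this comparison uses the same Mpb-gata1-1 libraries, so the count of 12 is partly set by that choice.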

How the results depend on the processing

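Each library left out in turn gave 9 to 16 genes by the rule, against 13, with 0 genes in runs each time. Other limits gave 23 genes (a minimum of 0.5 CPM), 8 (BoGa and Mpb-gata1-2 within 1.5-fold), 32 (under 1/4) and 5 (under 1/16), and total gene reads gave 11. Runs were not counted under these other limits. The limit of 1/4 added Mp7g04050, which lies directly before Mp7g04060. Mp3g13270, Mp6g17520 and Mp8g13460 were found under all 18 alternatives to the rule. Members in runs became 2 with up to 5 genes between or gaps under 100 kb. With 2 flanking genes on each side, 13 of 38 tested were lower and 10 higher in Mpb-gata1-1 against BoGa, and 10 lower and 5 higher in Mpb-gata1-2 against BoGa. With 10 on each side, of 183 tested, 43 were lower and 47 higher in Mpb-gata1-1, and 42 lower and 31 higher in Mpb-gata1-2. The lower share in Mpb-gata1-1 was 34.2%, 31.8% and 23.5% with 2, 5 and 10 genes on each side, against 23.2% of all genes. Flanking genes higher in Mpb-gata1-2 numbered 8 to 17 without single libraries, with 8 without Mpb-gata1-2 replicate 2 or 3. With the replicate number as a block, 28 flanking genes were lower and 17 higher in Mpb-gata1-1, and 22 and 14 in Mpb-gata1-2. Correlations of deviations gave no sign that the numbers pair the samples (-0.171 to 0.182 for same-numbered libraries, -0.178 to 0.207 for others). With 3 libraries per group they cannot exclude pairing. MpGATA4 rose by 0.74 and 0.91 with the block. Of the named flanking genes, Mp1g04930 lost its call under 9 alternatives, and the other 13 and MpGATA4 kept theirs under all that were run. Members with under 10 reads in Mpb-gata1-1 are limited by depth.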
